A study of Mus musculus with 4 samples.

Results

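The hepatocytes of a double knockout (DKO) liver, compared here with those of a wild-type (WT) liver, differed in genes of the male-biased liver program, bile acid synthesis, the acute phase and xenobiotic metabolism. In DKO hepatocytes the major urinary proteins, several fibrinogen and serum amyloid genes and the bile acid enzymes Cyp7b1 and Cyp8b1 were lower. Cyp7a1, the rate-limiting enzyme of classic bile acid synthesis, and the xenobiotic cytochromes Cyp3a11 and Cyp2a5 were higher, but the Cyp2 and Cyp3 cytochromes as a list were called in both directions, 5 of 25 higher and 7 lower. Hepatocytes were chosen by measured values: a barcode was kept if it had from 500 to 6000 genes with a UMI and no more than 10% of its UMIs on mitochondrial genes, and a kept cell was taken as a hepatocyte when the summed UMIs of Alb, Apoa1, Ttr, Apoc3, Cyp2e1, Ass1, Fgb and Serpina1c made up at least 4% of its UMIs and those of the endothelial genes Pecam1, Kdr, Stab2, Clec4g, Ptprb and Cdh5 less than 0.2%. This gave 2224 hepatocytes of 7155 kept cells in WT and 2917 of 8294 in DKO, together 5141 of 15449 kept cells in these libraries, of 30362 kept cells and 44974 barcodes in the whole series. The levels of the 8 genes that selected the cells are therefore a description.

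The study asked how loss of the transcriptional coactivators YAP and TAZ, alone or together, affects the cells of the mouse liver. It sequenced primary liver cells of WT, YAPKO, TAZKO and DKO mice, 1 library each, with no treatment in the labels. The DKO mouse carried floxed alleles of Yap1 and of Wwtr1, the gene of TAZ, recombined by Cre recombinase under the albumin promoter, and the WT mouse is labelled wildtype. The single knockouts carried the floxed alleles of 1 of these genes and the same Cre. Albumin-driven Cre acts in hepatocytes and biliary epithelial cells, so other liver cells are taken to keep intact alleles. When and in what share of the hepatocytes the alleles recombined was not measured. Each genotype is represented by 1 mouse, whose age and sex the labels do not give. Hepatocytes and non-parenchymal cells were isolated separately after collagenase perfusion and mixed before loading, so the share of hepatocytes in a library was set in part by hand. All comparisons are therefore between libraries, not between genotypes, and no test between them was possible.

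YAP and TAZ have no DNA-binding domain of their own and act mainly through the TEAD transcription factors. The Hippo kinases MST and LATS phosphorylate both proteins, which keeps them in the cytoplasm, and in the liver this pathway is known for its control of organ size, biliary cell fate and regeneration. Hepatocytes differ along the lobule, from periportal cells that carry out urea synthesis and gluconeogenesis to pericentral cells that make glutamine and bile acids and metabolise xenobiotics.

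Of the genes that selected the cells, Alb, the main plasma protein gene, stood at 40265 counts per 1000000 UMIs (CPM) in WT and 34081 in DKO hepatocytes, against 1252 and 1042 CPM in the other kept cells. Apoa1, Ttr and Apoc3 had a UMI in 100% of the hepatocytes of both libraries. The summed rule genes had a median of 9.69% of a cell's UMIs in WT and 7.41% in DKO. Genes outside the rule that mark hepatocytes were also higher in these cells. Hnf4a, the central transcription factor of hepatocytes, had 130.4 and 149 CPM in hepatocytes of WT and DKO and 4.94 and 7.49 in other kept cells, and Hpx, the heme-binding plasma protein hemopexin, 5832 and 5507 against 184 and 241. At the threshold of the rule, the lowest value inside was 4.01% and the highest outside 3.99% in WT, and 4% and 3.99925% in DKO, with 30 WT and 249 DKO hepatocytes between 4% and 5%. Hepatocyte transcripts were also found in other cells: in lymphocytes, taken as a reference, the rule genes had a median of 0.559% of UMIs in WT and 0.144% in DKO.

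The libraries differed in depth. WT hepatocytes had a median of 2162 UMIs and 717.5 genes, and DKO hepatocytes 6400 UMIs and 1818 genes, with 19028175 and 31172936 UMIs in all. Barcodes with fewer than 5000 UMIs made up 74.4% of WT hepatocytes (95% interval 72.5% to 76.2%) and 40.1% of DKO hepatocytes (38.4% to 41.9%). These shallow barcodes carried 18.0% of the WT and 10.9% of the DKO UMIs, while the 281 WT and 523 DKO hepatocytes with 20000 or more UMIs carried 67.9% and 51.0%. Mitochondrial transcripts had a median of 0.115% of UMIs in the shallow WT and 0.133% in the shallow DKO barcodes, against 3.996% and 3.63% in the deep ones. In the shallow WT barcodes 10.4% of UMIs belonged to CT010467.1 and 2.17% to Mir6236, against 1.26% and 0.192% in the shallow DKO barcodes and 0.484% and 0.0148% in deep WT hepatocytes. Whether every shallow barcode held a cell was not tested, so the numbers of hepatocytes and the shares of cells below are of barcodes that met the rule. Because UMIs were summed over cells, deep cells weigh more in each level, and the part of the shallow barcodes in the results was not tested beyond the depth classes given beside them. The WT and DKO hepatocytes shared 5 barcode sequences, and the kept cells 13.

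**Figure D1:**
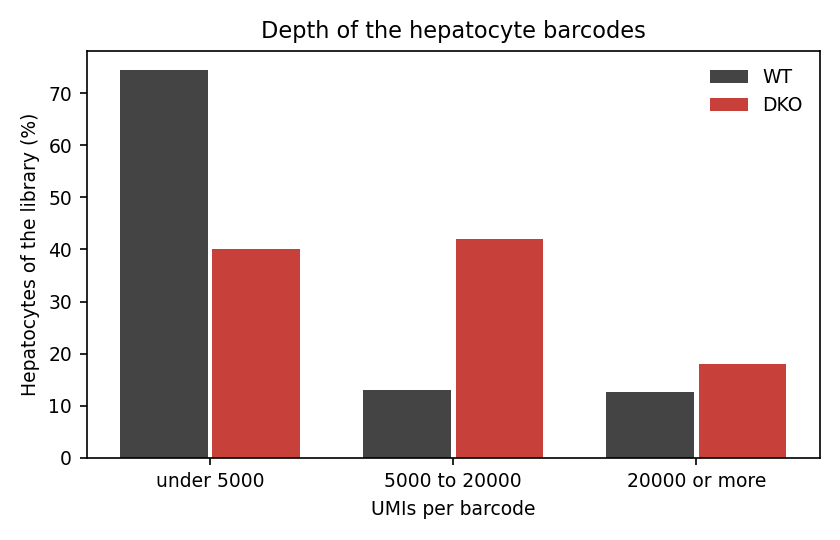
Share of the hepatocytes of the WT and DKO libraries (y axis, percent) in 3 classes of UMIs per barcode (x axis), 1 bar per library. Barcodes under 5000 UMIs make up 74.4% of WT and 40.1% of DKO hepatocytes.

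Markers of other liver cells were low in hepatocytes of both libraries. All 16 endothelial markers had UMIs, with a summed level of 118.8 CPM in WT and 118.6 CPM in DKO and Igfbp7 as the most abundant, and all 11 Kupffer cell markers summed to 181 and 147 CPM, led by C1qb. Monocyte and dendritic cell markers summed to 452 CPM in WT (14 of 16 with a UMI, Xcr1 and Gpnmb at 0) and 562 CPM in DKO (16 of 16), and Cst3, which many cells express, led both. T and NK cell markers summed to 44.9 and 54.0 CPM, led by Ccl5, with Cd8a and Cd8b1 at 0 in WT. For the 10 B cell markers, led by Igkc, the sums were 39.8 and 41.5 CPM. Stellate cell markers summed to 18.2 CPM in WT, without Col1a1, and 26.5 CPM in DKO, without Acta2, with Dcn as the leading gene. Red blood cell markers summed to 46.7 and 44.4 CPM, almost all of it Alas2, which hepatocytes make too; Hba-a2 was at 0 in both, Hbb-bt in WT and Hbb-bs in DKO. Biliary markers summed to 15.1 CPM in WT, led by Sox9, and to 27.8 CPM in DKO, led by Cldn7; Cftr was at 0 in both and Krt19 in DKO. Neutrophil markers differed: 8 of 10 had a UMI in WT, with a sum of 245 CPM, and 7 of 10 in DKO, with 47.1 CPM. S100a9 led both, Ly6g and Camp were at 0 in both, Ngp was at 0 in DKO, and all 4 tested neutrophil markers were lower in DKO. In the other kept cells the same neutrophil list stood at 4113 and 1482 CPM. An alternative left out hepatocytes with 0.5% or more of their UMIs on markers of other cell types and kept 2170 in WT and 2815 in DKO. The neutrophil sum was then 14.0 CPM in WT and 8.68 in DKO. T and NK cell markers then summed to 8.42 and 28.2 CPM, and stellate cell markers to 17.6 and 10.7. Of the called genes named here, S100a6 (-0.50) and Hmox1 (-0.46) were then within 2-fold, as they were without the highest doublet scores (-0.95 and -0.38), and the median of the cytoskeleton list went from -0.11 to 0.33, or 0.30 without those scores.

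For the comparison, UMIs were summed per gene over the hepatocytes of a library and scaled to CPM with an exact 95% Poisson interval. Ratios are log2 ratios of DKO over WT with exact 95% binomial intervals, shares of cells have exact 95% binomial intervals too, and none of the intervals includes variation between mice. Genes with a mean of at least 5 CPM over both libraries were tested for size, 8050 in all. Their median log2 ratio was 0.45, and the 20 most abundant genes took 37.4% of all UMIs in WT against 26.3% in DKO. All ratios are therefore given relative to that median gene, and a gene is called higher or lower in DKO when its relative log2 ratio is at least 1 or at most -1. On this scale 304 genes were higher, 3.78% of those tested, and 291 were lower, 3.61%. These shares are the background for each count over a list below. The higher genes made up 51.1% of those called. Without centring on the median gene 835 genes were higher and 131 lower (86.4% higher), with centring on genes of at least 100 CPM the split was 371 and 236 (61.1%), and with an equal weight for each cell 322 and 467 (40.8%). The balance of higher and lower genes thus depended on the scaling, whereas the middle of the distribution was narrow, with relative log2 ratios from -0.26 to 0.26 between the quartiles. For 194 higher and 222 lower genes the whole counting interval lay past the 2-fold limit, and at 4-fold the numbers were 94 and 78. Of the higher genes 163 were below 5 CPM in WT and of the lower genes 42 below 5 CPM in DKO, so these passed the filter through the library in which they were high, and counts over a list are read with this in mind.

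**Figure D2:**
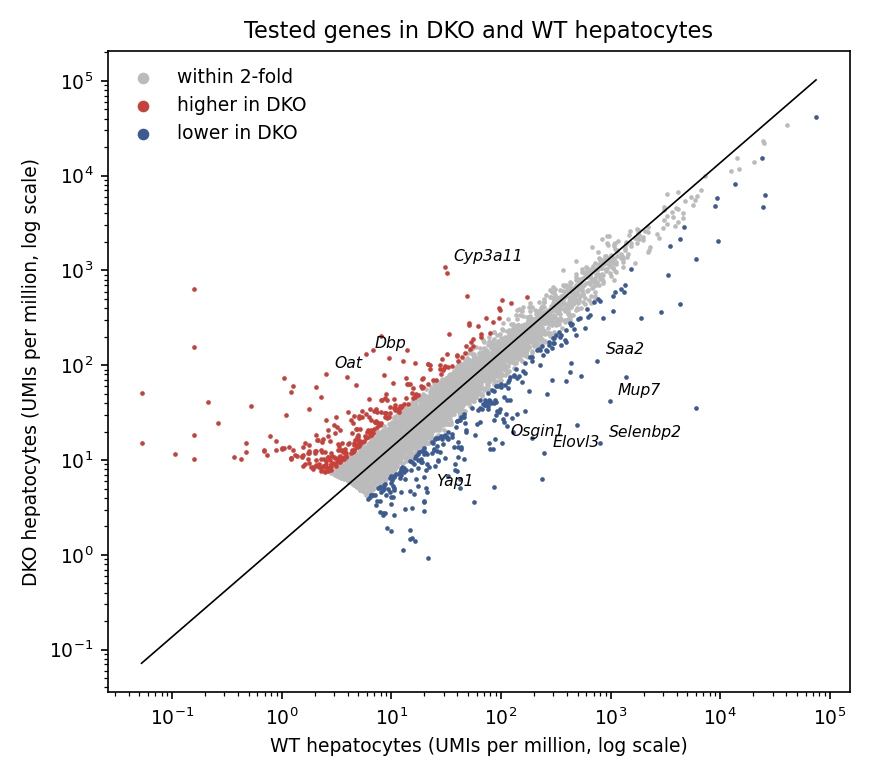
Level of each tested gene in WT hepatocytes (x axis, CPM, log scale) and in DKO hepatocytes (y axis, CPM, log scale), 1 point per gene with a UMI in both libraries, with the median ratio as a line. The 304 higher and 291 lower genes lie on both sides of it, and genes with 0 UMIs in 1 library are not drawn.

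Both deleted genes were lower in DKO hepatocytes. Yap1 stood at 21.2 CPM in WT and 4.59 in DKO, with a relative log2 ratio of -2.66 (95% interval -2.95 to -2.39), or 6.34-fold lower. Wwtr1 was scarce in hepatocytes, at 5.15 CPM in WT and 2.31 in DKO, with a relative log2 ratio of -1.61 (-2.07 to -1.16), and its mean was below the 5 CPM needed for a call. The single knockouts gave 4.61 CPM of Yap1 in YAPKO and 46.7 in TAZKO, and 13.2 and 1.44 CPM of Wwtr1. Each deleted gene was thus low in the libraries in which it was deleted, while the intact paralog was within 2-fold of WT on the relative scale in the single knockouts, at 0.58 for Yap1 in TAZKO and 0.96 for Wwtr1 in YAPKO. Counting at the 3′ end does not separate intact transcripts from those of a recombined allele, so the remaining UMIs of Yap1 and Wwtr1 cannot be assigned.

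**Figure D3:**
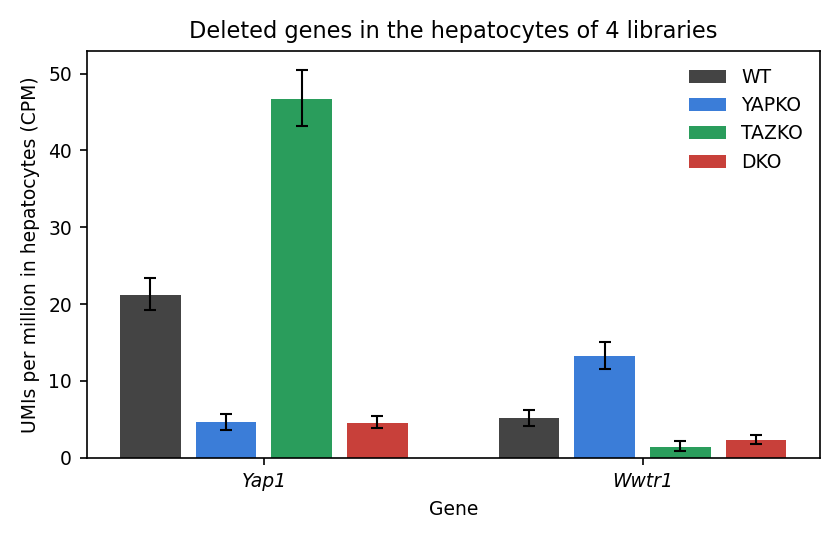
Levels of Yap1 and Wwtr1 (y axis, CPM, from 0) in the hepatocytes of the WT, YAPKO, TAZKO and DKO libraries, 1 bar per library with exact 95% Poisson intervals. Yap1 is at 4.61 CPM in YAPKO and 4.59 in DKO against 21.2 in WT, and Wwtr1 at 1.44 in TAZKO and 2.31 in DKO against 5.15 in WT.

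By cell, a Yap1 UMI was found in 11.1% of WT hepatocytes (9.83% to 12.5%) and 4.18% of DKO hepatocytes (3.49% to 4.97%). Lymphocytes, given for reference, had 1.34% and 0.912% at median depths of 3538 and 2816 UMIs, against 2162 and 6400 in hepatocytes. They held Yap1 at 3.15 and 2.77 CPM and Wwtr1 at 5.35 and 4.92, so they give no clear background for these genes. With every cell thinned at random to 5000 UMIs, for which 1655 WT and 1171 DKO hepatocytes were too shallow, the shares were 8.61% (6.44% to 11.2%) and 1.72% (1.16% to 2.44%), with 2.21% and 7.61% in the 181 and 92 lymphocytes deep enough. Thinned to 1000 UMIs, Yap1 was in 1.03% and 0.277% of hepatocytes and in 0.268% and 0.102% of lymphocytes. For Wwtr1 the shares were 3.96% and 2.16% of hepatocytes beside 1.61% and 1.11% of lymphocytes, and the thinned shares were 2.81% (1.62% to 4.53%) in WT and 0.802% (0.439% to 1.34%) in DKO hepatocytes, and 4.42% and 6.52% in lymphocytes. Thinned to 1000 UMIs, Wwtr1 was in 0.315% of WT and 0.277% of DKO hepatocytes, with 0.403% and 0% (at most 0.374%) in lymphocytes, so at this depth the shares in hepatocytes hardly differed.

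Of 18 listed Hippo pathway components 13 were tested, and all of these but Yap1 were within 2-fold (92.3%, against 92.6% of all tested genes), with none higher, 1 lower and a median relative log2 ratio of -0.12, which became 0.33 without centring. Lats1, a kinase that phosphorylates YAP and TAZ, stood at 14.7 CPM in WT and 17.8 in DKO. The adaptor gene Sav1, which scaffolds the upstream kinases, had 5.57 and 7.63 CPM. Tead1, the most abundant of the TEAD genes here, was at 6.04 and 4.43 CPM (relative log2 ratio -0.90, -1.27 to -0.53), just short of the limit. Mob1b, a LATS cofactor and the most abundant of the list, had 37.5 and 47.03 CPM.

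Known YAP/TAZ target genes were few in hepatocytes. Only 5 of the 22 listed genes reached the mean level for a test, none was called in either direction, and their median was 0.20, or 0.65 without centring and 0.95 in cells of 5000 to 20000 UMIs. Crim1, a transmembrane binder of growth factors, had the highest relative ratio of the 5, with 5.36 CPM in WT and 13.2 in DKO (relative log2 ratio 0.84, 0.53 to 1.17), and was past the limit without centring (1.29), in cells with at least 20000 UMIs (1.06) and in those with at least 1% mitochondrial UMIs (1.15). Amotl2, which binds YAP and is its target, stood at 6.99 and 8.15 CPM (-0.23, -0.54 to 0.08). Ccn1, a matricellular protein and classic target, had a mean below the limit, with 5.52 and 2.66 CPM (-1.51, -1.94 to -1.08), and Ccn2 had 12 and 7 UMIs. Ankrd1, also a classic target, had 2 UMIs in WT and 0 in DKO, so no ratio is given. The promoters of these targets are shown for the TEAD motif, GGAATG on either strand, because TEAD factors are the partners through which YAP and TAZ reach DNA. In the 250 bases before the start, RefSeq promoters of build GRCm38.p6 held the motif in 6 of the 17 promoters found for 15 of the listed genes (35.3%), against 4153 of all 32851 promoters (12.6%). A match describes letters in a window and not a site in use. The sequences run 5′ to 3′ on the strand of the gene, with the motif in capitals: Ccn1 at chr3:145649986-145650235 (minus strand), Ankrd1 at chr19:36119845-36120094 (minus), Amotl2 at chr9:102717554-102717803 (plus) and Crim1 at chr17:78199998-78200247 (plus).
Ccn1: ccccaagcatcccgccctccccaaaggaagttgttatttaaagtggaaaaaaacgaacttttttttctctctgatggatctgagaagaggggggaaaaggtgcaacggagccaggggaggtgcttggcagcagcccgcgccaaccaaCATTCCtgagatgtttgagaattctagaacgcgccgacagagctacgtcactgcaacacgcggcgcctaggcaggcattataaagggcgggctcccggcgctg
Ankrd1: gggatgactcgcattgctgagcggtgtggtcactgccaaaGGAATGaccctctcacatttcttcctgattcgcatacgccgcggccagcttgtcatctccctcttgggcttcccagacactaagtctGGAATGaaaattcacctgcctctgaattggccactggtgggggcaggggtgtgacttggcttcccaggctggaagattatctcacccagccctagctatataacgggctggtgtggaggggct
Amotl2: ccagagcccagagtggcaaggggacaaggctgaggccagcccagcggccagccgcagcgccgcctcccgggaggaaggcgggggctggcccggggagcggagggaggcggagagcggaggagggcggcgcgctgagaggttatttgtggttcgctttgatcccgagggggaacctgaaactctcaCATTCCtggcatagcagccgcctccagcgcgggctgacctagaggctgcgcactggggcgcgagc
Crim1: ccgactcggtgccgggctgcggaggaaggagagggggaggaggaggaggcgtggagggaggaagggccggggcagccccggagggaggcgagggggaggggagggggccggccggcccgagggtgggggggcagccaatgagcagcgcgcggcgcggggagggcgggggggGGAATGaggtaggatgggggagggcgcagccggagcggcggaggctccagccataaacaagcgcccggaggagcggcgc

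The largest relative increases, among genes with at least 50 CPM in DKO and a higher CPM in hepatocytes than in other kept cells, included Cyp3a11, Cib3 and Cxcl14. Cyp3a11, a major xenobiotic cytochrome, stood at 30.6 CPM in WT and 1075 in DKO, a relative log2 ratio of 4.68 (4.56 to 4.80) or 25.7-fold. Cib3, a calcium- and integrin-binding protein, had 32.2 and 935 CPM (4.41, 4.29 to 4.53). Cxcl14, a chemokine, had 1.26 CPM in WT and 60.95 in DKO (5.14, 4.56 to 5.79). In the other kept cells Cyp3a11 stood at 6.11 and 25.9 CPM, Cib3 at 1.59 and 62.8 and Cxcl14 at 11.3 and 26.0. Each was thus higher in DKO there too, and Cxcl14 was higher in other WT cells than in WT hepatocytes. These genes were nearly absent from WT hepatocytes or many times below their DKO level. Cyp2a4 had 1 UMI in WT against 1586 in DKO, a relative log2 ratio of 9.47 with a wide interval (6.99 to 14.77), and Cyp2a5 had 2.05 and 59.6 CPM, but the sequences of these neighbouring genes are so alike that the split of reads between them is uncertain. Ppp1r3g, a glycogen-targeting subunit of protein phosphatase, was at 1.05 and 73.7 CPM, and Nnmt, which methylates nicotinamide, at 48.9 and 539. The others of the 15 were Cyp4a14, Oat, Gstm3, Dbp, Ifi27l2b, Gsta1, Ptgds and Inmt, and the relative log2 ratio of the 15 ranged from 2.91 for Inmt to 9.47 for Cyp2a4. Cyp2a4, with 1 UMI in WT, is left out of the ranges by class of cells. In cells of 5000 to 20000 UMIs the other ratios ran from 1.75 for Cyp2a5 to 6.91 for Ppp1r3g, with 2.71 for Oat. In the pericentral range they ran from 1.77 for Ptgds to 6.52 for Ppp1r3g, with 2.85 for Cyp3a11. In hepatocytes with at least 20000 UMIs, a limit chosen after the depths were seen, they ran from 2.85 for Inmt to 6.03 for Oat. The highest values rest on low WT levels, with Ppp1r3g at 0.616 CPM in the pericentral range and Oat at 1.08 in deep cells. The size of several of these differences thus depended on the cells compared. The genes were picked for their ratios over these same cells, so a kept direction in parts of them is no independent support. Cyp2a4, Ppp1r3g, Cxcl14, Cyp4a14, Oat, Cyp2a5 and Gsta1 were below 5 CPM in WT and passed the filter through DKO.

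The shares of cells with Cyp3a11, Cib3 and Cxcl14 come from the same UMIs for which these genes were picked. They describe the spread over cells and give no further support. A Cyp3a11 UMI was found in 6.65% of WT hepatocytes (5.65% to 7.77%) and 71.5% of DKO hepatocytes (69.8% to 73.1%), and after thinning to 5000 UMIs in 3.69% (2.30% to 5.59%) and 72.5% (70.3% to 74.6%). Lymphocytes had 0.805% and 7.70% unthinned, and 0% (at most 2.02%) and 10.9% thinned, so the share in lymphocytes was also higher in the DKO library. Cib3 reached nearly every DKO hepatocyte, with 13.8% of cells in WT and 92.4% in DKO, 13.5% and 92.8% after thinning, and 1.07% and 5.17% of lymphocytes unthinned. Cxcl14, in contrast, was detected in a minority of DKO hepatocytes, in 0.854% of WT and 30.5% of DKO cells, or 0.527% and 23.6% after thinning. Lymphocytes had 0.134% and 0.405% unthinned, and 0.552% and 2.17% thinned, so thinned WT hepatocytes were near lymphocytes.

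**Figure D4:**
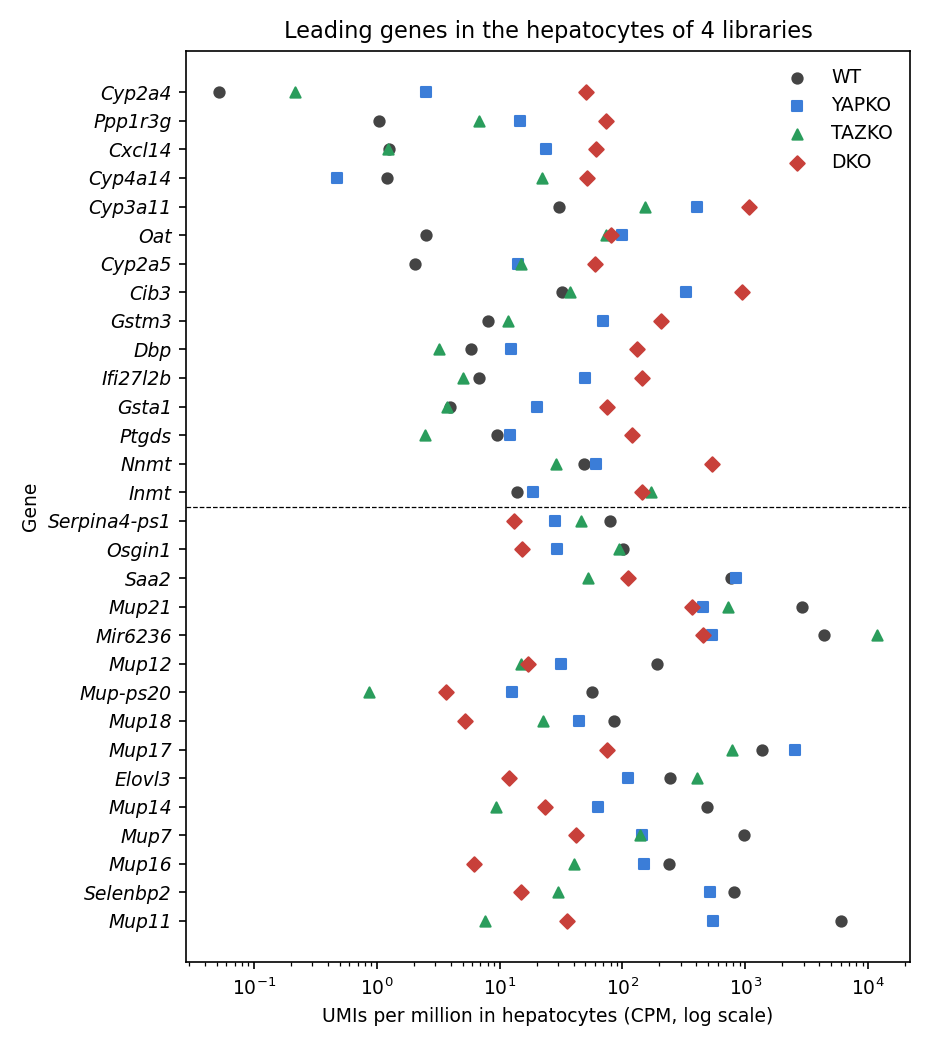
Levels (x axis, CPM, log scale) of the 15 genes with the highest and the 15 with the lowest relative ratio of DKO over WT (y axis, in the order of that ratio), among genes with at least 50 CPM in the library where they were higher and more CPM in its hepatocytes than in its other kept cells, in the hepatocytes of WT, YAPKO, TAZKO and DKO, 1 point per library. Genes above the dashed line were higher and genes below it lower in DKO than in WT.

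By the same limits, with at least 50 CPM in WT, the 15 genes with the lowest relative ratio included 9 of the major urinary protein family, 1 of them a pseudogene. Selenbp2, a selenium-binding protein, stood at 805 CPM in WT and 15.05 in DKO (relative log2 ratio -6.20, -6.33 to -6.06). Elovl3, an elongase of very long fatty acids, had 246 and 11.9 CPM (-4.82, -4.98 to -4.67). Osgin1, a stress-induced growth inhibitor, was at 101 and 15.3 CPM, and Saa2, an acute phase serum amyloid, at 757 and 112. The ratios of these genes were of like size in deep cells: with at least 20000 UMIs they were -6.39 for Selenbp2, -4.46 for Elovl3, -3.15 for Osgin1 and -3.18 for Saa2, although Saa2 was at -1.67 in the pericentral range. Mir6236 was the exception, with 4324 and 448 CPM and a ratio of -3.72, but -0.69 in deep cells. Serpina4-ps1, a serpin pseudogene, completed the list with 79.8 and 13.2 CPM. A Selenbp2 UMI was found in 83.5% of WT and 12.8% of DKO hepatocytes, and in 83.7% and 7.10% after thinning to 5000 UMIs. In lymphocytes the shares of Selenbp2 were 18.1% and 0.203% unthinned and 17.1% and 1.09% thinned.

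Genes of the male-biased liver program, which pulsatile growth hormone maintains through STAT5B, were often lower. Of 22 listed genes 20 were tested, and 14 were lower (70%, against 3.61% of all tested genes), none was higher and 6 were neither. The median of -1.71 was between -2.07 and -1.26 under all alternatives of scaling and cells. The list includes Mup genes, whose single values are uncertain, and no count without them was made. Moxd1, a monooxygenase-like protein, had 15.9 CPM in WT and no UMI in DKO, at least 226-fold lower when 3 UMIs are taken as the limit. Hsd3b5, a male-specific steroid dehydrogenase, had 42.3 and 6.38 CPM (-3.18, -3.41 to -2.96). Slco1a1, an organic anion transporter also listed as male-biased, differed from these, with 78.1 and 104 CPM (-0.04, -0.13 to 0.05). Major urinary proteins carry pheromones and are made in large amounts by male liver. All 19 tested of 22 were lower, with a median of -3.24, and the family took 11.3% of hepatocyte UMIs in WT and 4.87% in DKO, a relative log2 ratio of -1.67 for the sum. Mup20, the most abundant, had 74689 CPM in WT and 41769 in DKO (-1.29, -1.30 to -1.29), and Mup11 6025 and 35.3 CPM (-7.87). Many Mup genes are nearly identical, so that reads cannot be assigned with certainty among them, and the values of single members other than the sum are uncertain.

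Only 7 of 26 female-biased genes reached the level for a test, and 5 were higher and 2 lower, with a median of 1.93. Higher were Cyp2a4, Cyp4a14 with 1.21 and 51.7 CPM, the neurotrophin receptor gene Ntrk2 with 0.683 and 12.8, and Cyp4a10 with 8.67 and 45.3. Lower were Cyp17a1, a steroid hydroxylase, with 21.2 and 11.7 CPM, and Cyp39a1, an oxysterol hydroxylase. A filter on the mean level keeps a scarce gene only where it is high, so this count does not describe the whole list, and Cux2, a female-specific transcription factor, had 0 UMIs in both libraries. The 4 tested sex-linked genes were all within 2-fold, with Ddx3y on the Y chromosome at 49.6 CPM in WT and 76.5 in DKO. In the growth hormone and IGF axis, 2 of 14 tested genes were higher and 1 lower. Bcl6, a repressor that opposes STAT5, had 7.41 and 31.9 CPM (1.65, 1.40 to 1.92), and Irs2, an insulin receptor substrate, 16.4 and 47.3. Onecut1 was the lower gene, while Ghr, the growth hormone receptor, stood at 271 and 328 CPM and Igf1, its main secreted effector, at 781 and 1338. Socs2, a direct STAT5 target, was just inside the limit at 26.4 and 18.4 CPM (-0.97, -1.15 to -0.80). The STAT5 motif TTCNNNGAA was found in the 250 bases before the start in 1 of 18 promoters of 16 male-biased genes and in 2 of 21 promoters of 17 female-biased genes, against 7.02% of all promoters.

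Of 24 listed pericentral genes 13 were tested, with 6 higher, none lower and a median of 0.75, or 1.09 without Cyp2e1, which selected the cells. Over the alternatives of scaling and cells the median with Cyp2e1 ran from 0.41 with at most 5% mitochondrial UMIs to 1.78 in the periportal range. The 1.78 was the ratio of Cyp2e1 itself, and that range was cut on pericentral UMIs, so the value is not independent of the cut. With the rule genes at 8% the median was 1.77. Of the 6 higher genes, Oat, Cyp2a5 and Ahr were below 5 CPM in WT and passed the filter through DKO, and 11 listed genes were not tested. Oat, ornithine aminotransferase of the pericentral rim, had 2.52 CPM in WT and 80.4 in DKO (4.54, 4.13 to 4.98). Rgn, a calcium regulator and gluconolactonase, had 95.2 and 404 CPM (1.63, 1.56 to 1.70), and Gulo, the last enzyme of vitamin C synthesis, 18.8 and 70.9. The classic marker Glul, glutamine synthetase, did not follow them, with 26.2 and 39.9 CPM (0.15, 0.00 to 0.31). Cyp2e1, which also served to select the cells, had 118 and 237 CPM (0.55), Cyp1a2, a drug-metabolising cytochrome, 37.1 and 85.2 (0.75), and Aldh1a1, the most abundant of the list, 255 and 354 (0.02). Oat was found in 1.75% of WT and 18.7% of DKO hepatocytes, or 1.58% and 12.5% after thinning to 5000 UMIs, but lymphocytes, which held Oat at 47.2 and 39.1 CPM and so give no background for it, had it in 17.3% and 11.3%, or 18.8% and 17.4% thinned. Thinned to 1000 UMIs, Oat was in 0.495% and 5.61% of hepatocytes and in 4.70% and 3.05% of lymphocytes. For Cyp1a2 the shares were 8.45% and 22.4%, or 5.45% and 17.7% thinned to 5000 UMIs. Lymphocytes had it in 0.134% and 1.11% unthinned, and in 0% (at most 2.02%) and 1.09% thinned to 5000.

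Periportal genes gave a median of -0.26, or 0.20 without centring, with 1 of 21 tested genes higher and 4 lower. Lower were Cyp2f2, the main periportal cytochrome, with 1321 and 594 CPM (-1.61, -1.63 to -1.58), Ctsc, a lysosomal protease, with 126 and 27.5, Gldc of the glycine cleavage system and Apof. Etnppl, which breaks down phosphoethanolamine, was higher, with 84.1 and 286 CPM. The urea cycle genes Ass1, which selected the cells, with 2193 and 2866 CPM, and Cps1, with 1075 and 1801, were within 2-fold. Cyp2f2 was detected in 76.8% of WT and 61.9% of DKO hepatocytes, and in 92.3% and 67.6% after thinning. Lymphocytes had it in 18.3% and 3.65% unthinned, and in 14.4% and 5.43% thinned.

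Cells were also split at the WT median of a score, the log2 ratio of pericentral over periportal UMIs (5 genes each, with 1 UMI added to both), which was -2.58. In the pericentral range lay 1182 WT hepatocytes, with a median of 1806.5 UMIs, and 911 DKO hepatocytes, with 3270, which was 53.1% and 31.2% of the cells. The periportal range held 1042 WT and 2006 DKO hepatocytes, with medians of 5074 and 8037 UMIs. Of the cells in the pericentral range, 96.4% of WT and 67.3% of DKO had fewer than 5000 UMIs, and 60.2% and 26.7% held no UMI of the 5 pericentral genes, against 49.5% and 27.8% and against 77.9% and 62.8% in the periportal range. A place in the lobule cannot be told apart from depth by this score, and the names of the ranges stand for classes of the score alone. Depth differed between the ranges and between the libraries, and 404 WT and 252 DKO cells of the pericentral range lay within 0.5 of the limit. The male-biased list had a median of -1.93 in the pericentral and -1.72 in the periportal range, the acute phase list -0.86 and -0.98, and bile acid synthesis -0.52 and -0.81. The medians of other lists had opposite signs in the ranges. They were 0.47 in the pericentral and -0.58 in the periportal range for mitochondrial transcripts, and 0.10 and -0.55 for cholesterol synthesis. Immediate early genes had -0.16 and 0.63, the cytoskeleton list -0.50 and 0.35, and interferon-stimulated and MHC class I genes -0.43 and 0.13. Fatty acid synthesis had 0.10 and -0.35, the growth hormone and IGF axis 0.18 and -0.16, and Hippo components 0.13 and -0.10. Signs were also opposite for glutathione S-transferases, the iron and hepcidin axis, glucose and glycogen handling and sex-linked genes. In the pericentral range 21 of the 132 called genes named here were within 2-fold, in the periportal range 4. None of the named genes was called higher in 1 range and lower in the other. Differences between the ranges were not tested.

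Bile acid synthesis showed opposite values for its main hydroxylases. Of 14 tested genes 1 was higher and 6 lower, with a median of -0.72. The higher gene, Cyp7a1, was below 5 CPM in WT and passed the filter through DKO. Cyp7a1, which starts the classic pathway, had 4.57 CPM in WT and 29.2 in DKO (2.22, 1.90 to 2.55), while Cyp8b1, which directs synthesis to cholic acid, had 165 and 32.6 (-2.80, -2.90 to -2.69). Cyp7b1, of the alternative pathway and also male-biased, had 389 and 67.6 CPM (-2.98, -3.05 to -2.91). Lower as well were Acox2, a peroxisomal oxidase that shortens the side chain, with 107 and 46.2 CPM, and Cyp2c70, which makes muricholic acids, with 349.5 and 165. By cell, Cyp7a1 was found in 1.62% of WT (1.14% to 2.23%) and 8.19% of DKO hepatocytes (7.22% to 9.25%), and in 1.76% and 6.87% after thinning. Lymphocytes had it in 0% (at most 0.494%) and 0.304% unthinned, and in 0% (at most 2.02%) and 0% (at most 3.93%) thinned. Cyp8b1 was found in 31.2% and 17.2% of hepatocytes, or 45.9% and 10.3% thinned. In lymphocytes the shares were 3.09% and 0.304% unthinned, and 2.21% and 0% (at most 3.93%) thinned.

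Among 9 tested regulators of bile acids, Nr1i3, the constitutive androstane receptor, was the 1 called gene, with 5.15 CPM in WT and 21.2 in DKO (1.59, 1.28 to 1.91). It made up 11.1% of the list, against 3.78% of all tested genes called higher. Nr1h4, the bile acid receptor FXR, had 32.6 and 66.6 CPM (0.58), and its target Nr0b2, the repressor SHP, 71.999 and 58.1 (-0.76). Of 16 tested transporters 3 were higher (18.8%, against 3.78% of all tested genes) and 2 lower (12.5%, against 3.61%). Slco1a4, an uptake carrier of organic anions, had 3.101 and 28.5 CPM (2.75, 2.37 to 3.15), Slc10a2, an apical bile acid carrier, 18.8 and 58.9, and Abcc3, a basolateral exporter, 19.2 and 56.97. The lower genes were Abcg2, a canalicular exporter, with 90.8 and 40.8 CPM, and Slc22a7. The main carriers of bile acids were within 2-fold: Slc10a1, for uptake from blood, had 315 and 264 CPM (-0.71), and Abcb11, the bile salt export pump, 179.7 and 157 (-0.65).

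Acute phase proteins, which hepatocytes secrete in inflammation, were lower in 10 of 25 tested cases, 40% against 3.61% of all tested genes. In 1 case (4%, against 3.78%) they were higher, and the median was -0.97. Saa1 stood at 1887 CPM in WT and 317 in DKO (-3.03, -3.06 to -2.99). The fibrinogen chain genes Fga, with 3358 and 889 CPM, and Fgg, with 6047 and 1311, were lower together with Fgb, which had 9508 and 2063 CPM but also served to select the cells. Hp, which binds free hemoglobin, had 4634 and 2874 CPM (-1.14). Lcn2, an iron-scavenging lipocalin, was the exception, with 21.7 and 102 CPM (1.79, 1.64 to 1.94), although in cells of 5000 to 20000 UMIs its ratio was -0.0857. Saa1 was detected in 91.5% of WT and 45.9% of DKO hepatocytes, or 95.3% and 38.3% after thinning. Lymphocytes had Saa1 in 34.6% and 2.13% of cells, or 27.6% and 2.17% thinned, so the share in lymphocytes was also lower in the DKO library.

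In complement and coagulation 6 of 34 tested genes were lower (17.6%, against 3.61% of all tested genes) and none higher. The median was -0.51, or -0.05 without centring and -0.21 in cells with at least 20000 UMIs. C9, the pore-forming complement component, had 853 CPM in WT and 318 in DKO (-1.88, -1.92 to -1.84), and Kng1, the kininogen gene, 1249.9 and 633 (-1.43). Vtn, vitronectin, the most abundant of the list, was just past the limit (-1.01, -1.04 to -0.99) and at -0.56 in those deep cells, in which Kng1 (-0.96), C8b (-0.92) and Masp2 (-0.96) were within 2-fold too. Of 17 tested apolipoprotein genes 2 were lower, Apoa4 with 1044 and 378 CPM (-1.92, -1.95 to -1.89) and Apof, and none was higher. Their median was -0.61, or -0.60 without Apoa1 and Apoc3, which selected the cells. Ttr, the carrier of thyroid hormone and retinol-binding protein and a gene of the hepatocyte rule, was just inside the limit (-0.98, -0.99 to -0.98).

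**Figure D5:**
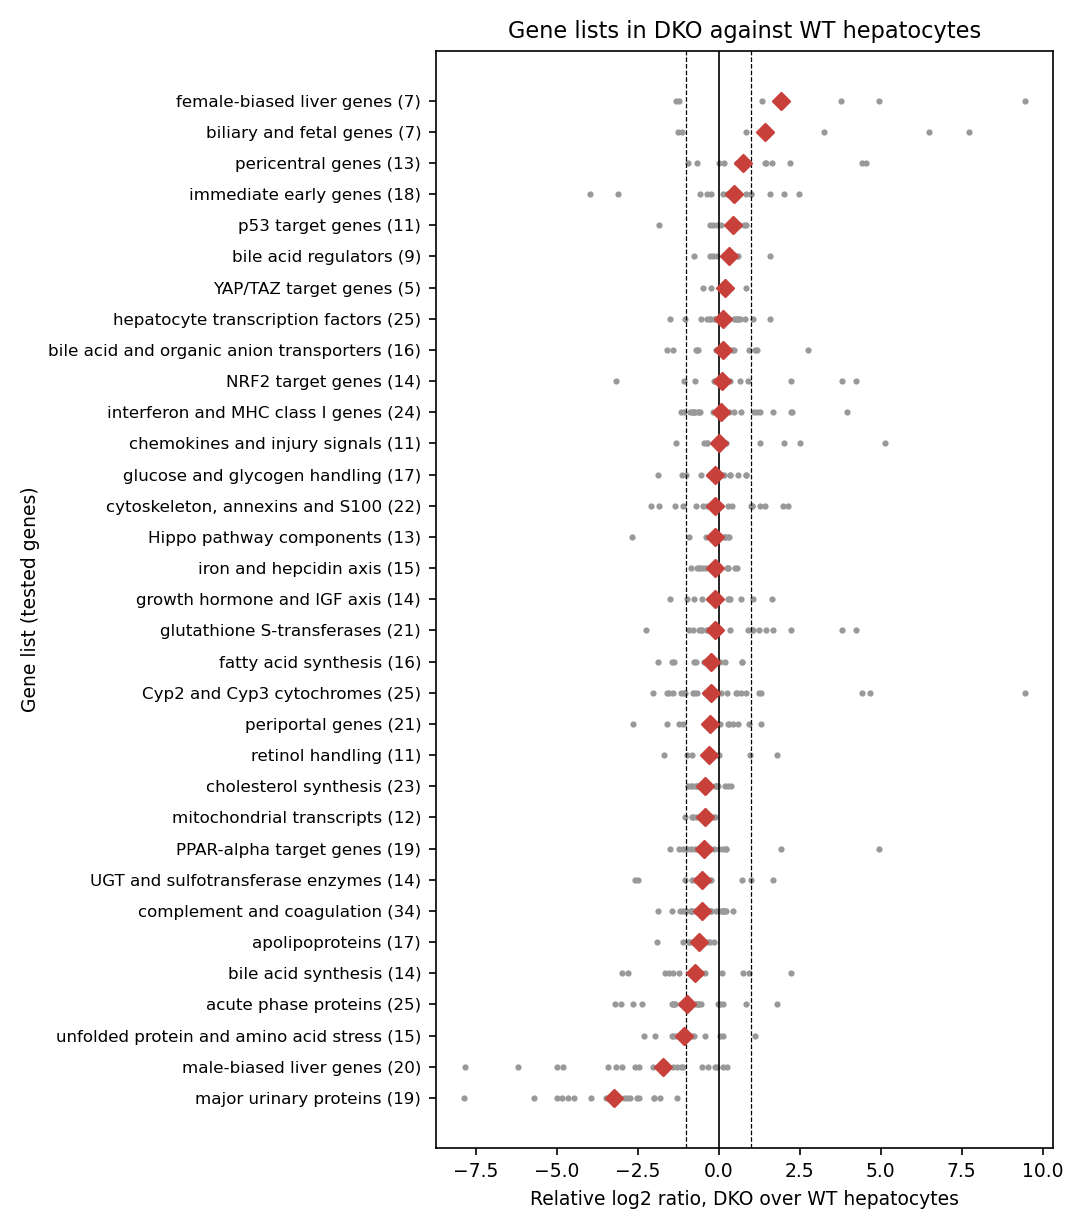
Relative log2 ratio of DKO over WT hepatocytes (x axis) of the tested genes of each list with at least 5 of them (y axis, with their number), 1 grey point per gene and a red diamond at the list's median. Dashed lines mark the 2-fold limits, and the number of tested genes differs between the lists. The lowest median, -3.24 for major urinary proteins, rests on uncertain single members, and the highest, 1.93, on 7 of 26 female-biased genes, of which 4 of the 5 higher ones were below 5 CPM in WT.

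Enzymes of xenobiotic metabolism were called in both directions. Among the Cyp2 and Cyp3 cytochromes 5 of 25 tested genes were higher and 7 lower, with a median of -0.24 that was 0.22 without centring. Beside Cyp3a11, Cyp2a4 and Cyp2a5, Cyp2c67 was higher, with 10.5 and 35.1 CPM. Cyp2d40 and the male-biased Cyp2d9 were lower, Cyp2d9 with 652 and 339 CPM (-1.40). Glutathione S-transferases, which conjugate electrophiles, had 8 of 21 tested genes higher and 1 lower, yet a median of -0.13, or 0.32 without centring. Gstm3 stood at 7.99 CPM in WT and 205 in DKO (4.23), Gsta1 at 3.94 and 75.4 (3.80) and Gsta2 at 33.6 and 216 (2.23). Gstm5 was lower, with 182 and 52.96 CPM. Members of the Gsta and Gstm families are close paralogs, and the assignment of reads within each is uncertain.

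The NRF2 target list shares Gstm3, Gsta1 and Gsta2, and these were its 3 higher genes of 14 tested. Its 2 lower genes were Osgin1 and Hmox1, the inducible heme oxygenase, with 10.6 and 6.83 CPM (-1.08, -1.37 to -0.80) within 2-fold without cells with other markers, and a ratio of 0.0335 in cells with at least 1% mitochondrial UMIs, a limit chosen after the data were seen. Gstm1, the most abundant of them, was within 2-fold at 841 and 2141 CPM. Of 14 tested UDP-glucuronosyltransferases and sulfotransferases 1 was higher and 3 lower, with a median of -0.50. Sult1a1, a phenol sulfotransferase, had 72.4 and 317 CPM (1.68, 1.60 to 1.76), and Ugt2b38, a male-biased glucuronosyltransferase, 45.6 and 10.3 (-2.60). In retinol handling 1 of 11 tested genes was higher and 1 lower, 9.09% each, against 3.78% and 3.61% of all tested genes. Rdh16, a retinol dehydrogenase, had 6.99 and 33.3 CPM, and Retsat, retinol saturase, 157 and 66.6.

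None of 16 tested fatty acid synthesis genes was higher and 3 were lower, which is 18.8% against 3.61% of all tested genes: Acacb, the mitochondrial acetyl-CoA carboxylase, with 26.4 CPM in WT and 9.82 in DKO (-1.88, -2.09 to -1.67), Me1, the malic enzyme, with 115 and 58.3, and the elongase gene Elovl5. Scd1, the stearoyl-CoA desaturase and the most abundant of them, had 2173 and 2554 CPM (-0.22). Without centring Me1 (-0.98) and Elovl5 (-0.92) were within 2-fold, and the median of this list went from -0.23 to 0.22. None of the 23 cholesterol synthesis genes was called, and their median of -0.41 became 0.04 without centring. Targets of PPAR-alpha, the receptor that drives fatty acid oxidation, had 2 of 19 tested genes higher, Cyp4a14 and Cyp4a10, and 3 lower. Fabp1, the liver fatty acid-binding protein, was among the lower ones with 23944 and 15223 CPM (-1.11), together with Angptl4, a lipase inhibitor, and Plin2, a lipid droplet coat protein. Fgf21, a hepatokine under this receptor, was too scarce for a call, with 97 and 11 UMIs. In glucose and glycogen handling 3 of 17 genes were lower (17.6%, against 3.61% of all tested genes) and none higher. Lower were the glycogen-targeting subunits Ppp1r3c, with 12.3 and 4.59 CPM, and Ppp1r3b. The subunit gene Ppp1r3g, named above and not in this list, was higher, with 1.05 and 73.7 CPM (5.68). G6pc, the glucose-6-phosphatase, was lower with 503 and 311 CPM (-1.15, -1.19 to -1.11). It was within 2-fold in cells of 5000 to 20000 UMIs (-0.84), with at least 20000 (-0.97) and without centring (-0.69). In the periportal range it was at -1.17.

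Of 23 genes of biliary or fetal cells 7 were tested, with 4 higher and 2 lower in DKO hepatocytes. Among the higher ones Cldn7, H19 and Krt23 were below 5 CPM in WT and passed the filter through DKO. Krt8, a keratin that hepatocytes share with biliary cells, had 122 CPM in WT and 456 in DKO (1.44, 1.38 to 1.51), and its partner Krt18 183 and 454 (0.85). Cldn7, a tight junction protein, had 1 UMI in WT and 472 in DKO (7.72, 5.23 to 13.02). It was found in 0.0450% of WT and 8.50% of DKO hepatocytes unthinned and in 0% (at most 0.646%) and 5.27% after thinning. Lymphocytes had it in 0.134% and 0% (at most 0.373%) unthinned, and in 0.552% and 0% (at most 3.93%) thinned. H19, an imprinted fetal transcript, had 0 UMIs in WT and 602 in DKO, at least 89.4-fold higher, but those came from 0.720% of the cells. The biliary genes Sox9, with 11.6 and 7.19 CPM, and Spp1, with 38.99 and 22.5, were lower. Without centring they were within 2-fold (-0.69 for Sox9 and -0.80 for Spp1), as was Sox9 in the pericentral range (-0.63). Spp1 was lower too in the other kept cells (259 and 30.0 CPM) and in lymphocytes (38.7 and 3.08). Krt19 and Krt7 had at most 4 UMIs in either library.

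Genes of the cytoskeleton, annexins and S100 proteins gave 6 higher and 4 lower of 22 tested. Higher were Cd63, a tetraspanin, with 5.41 and 32.6 CPM (2.14, but 0.08 in cells of 5000 to 20000 UMIs), Tagln2, an actin-binding protein, and Anxa2. Tagln2 (0.56) and Anxa2 (0.10) were within 2-fold in the pericentral range, and so was Anxa2 (0.32) in cells of 5000 to 20000 UMIs. Tubb2a, a tubulin, was lower with 57.6 and 18.4 CPM (-2.10, -2.24 to -1.95). S100a6 was lower over all hepatocytes, with 16.7 and 6.32 CPM (-1.85, -2.12 to -1.59), but it was within 2-fold without cells with markers of other types (-0.50) and without the highest doublet scores (-0.95), and its ratio was 1.12 in cells with at least 20000 UMIs, where it stood at 1.39 and 3.96 CPM. Other kept cells held it at 413 and 400.3 CPM. Actb, the most abundant of them, differed little (-0.04).

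Only 3 of 22 cell division genes were tested, and Ccnd1, the G1 cyclin D1, was higher with 16.8 CPM in WT and 50.3 in DKO (1.13, 0.96 to 1.31). In the periportal range, with 68.8% of the DKO cells, its ratio was 0.42, within 2-fold, and in the pericentral range 1.81. It was found in 6.25% of WT and 19.6% of DKO hepatocytes, or 6.33% and 14.5% after thinning, beside 3.76% and 2.84% of lymphocytes unthinned and 8.29% and 16.3% thinned. Thinned to 1000 UMIs, Ccnd1 was in 1.17% and 3.91% (3.23% to 4.68%) of hepatocytes and in 0.805% and 0.813% (0.352% to 1.60%) of lymphocytes, so the order of DKO hepatocytes and lymphocytes depended on the depth. The other kept cells held Ccnd1 at 311 and 318 CPM. Mki67, a marker of dividing cells, had 5 and 12 UMIs in hepatocytes, too few for a statement on proliferation. Of 11 tested p53 targets Cdkn1a, the inhibitor p21, was the 1 called gene, lower with 26.4 and 10.04 CPM (-1.85, -2.06 to -1.64). It made up 9.09% of the list, against 3.61% of all tested genes called lower.

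Immediate early genes, which respond within minutes to stress and growth factors and also to cell isolation, had 4 of 18 tested genes higher and 2 lower. Myc, a growth-promoting transcription factor, had 2.102 CPM in WT and 16.1 in DKO (2.48, 2.02 to 2.99), and Nr4a1, a nuclear receptor, 5.098 and 28.04. Klf6 was higher over all cells (1.57) but at -0.00634 in the pericentral range, and Atf3 was at the limit (1.00, 0.66 to 1.36). The heat shock genes Hspa1a, with 16.3 and 1.41 CPM (-3.98, -4.47 to -3.52), and Hspa1b, with 83.6 and 13.2, were lower. In the other kept cells they differed too, at 242 and 41.8 CPM for Hspa1a. Myc and Atf3 were below 5 CPM in WT, and Hspa1a in DKO, so each passed the filter through the other library. Chaperones and other genes of the unfolded protein response were lower in 8 of 15 tested cases and higher in 1, with a median of -1.06. Without centring the median was -0.61, and Hspa5 (-0.99), Manf (-0.96) and Hsp90b1 (-0.88) of this list were within 2-fold. Hspa5, the chaperone BiP, had 1058 and 534 CPM (-1.44, -1.47 to -1.41), Creld2, an ER stress-induced protein, 110.0 and 30.6 (-2.30), and Ddit3, the pro-apoptotic factor CHOP, was the higher gene with 3.31 and 9.88. Ddit3 was below 5 CPM in WT and passed the filter through DKO. It was within 2-fold in cells of 5000 to 20000 UMIs (0.63) and in the pericentral range (0.44). With at least 20000 UMIs it was at 1.52 and in the periportal range at 1.30. Hspa5 stood at 1109 and 657 CPM in the other kept cells.

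Of 24 tested interferon-stimulated and MHC class I genes 7 were higher and 2 lower, with a median of 0.08 that was -0.43 in the pericentral range. Ifit1, Ifit3, Oasl1, Cxcl10 and Ifi44 of the higher genes were below 5 CPM in WT and passed the filter through DKO. Ifi27l2b had 6.83 CPM in WT and 144 in DKO (3.95, 3.70 to 4.21), Oasl1, of the oligoadenylate synthetase family, 3.05 and 19.4 (2.22), and Ifit3, an antiviral protein, 1.79 and 11.8 (2.27). Bst2, tetherin, was lower with 443 and 269 CPM, and B2m, the light chain of MHC class I, was within 2-fold (-0.80). Of 11 tested chemokines and injury signals 4 were higher and 1 lower, and of the higher ones Cxcl14, Cxcl9 and Cxcl10 were below 5 CPM in WT and passed the filter through DKO. After Cxcl14, the interferon-induced chemokines Cxcl9, with 2.996 and 23.6 CPM (2.52, 2.13 to 2.94), and Cxcl10, with 3.63 and 12.1 (1.28, but -0.76 in the pericentral and 3.26 in the periportal range, and 4.03 in cells of 5000 to 20000 UMIs), and the growth factor gene Pdgfa, with 8.99 and 49.5, were higher. Cxcl1, a neutrophil attractant, was lower with 64.01 and 35.1 CPM (-1.32, -1.44 to -1.20) but at -0.03 in the pericentral range.

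Of the transcription factors of hepatocytes, 21 of 25 tested were within 2-fold, or 84.0% against 92.6% of all tested genes. Of the 25 tested factors 2 were higher, Nr1i3 and Prox1, a regulator of hepatocyte identity, with 47.2 and 136 CPM (1.07, 0.96 to 1.17), and 2 lower, Onecut1 (HNF6) with 25.8 and 12.4 CPM (-1.51, -1.70 to -1.31) and Foxa2. Hnf4a, the central factor of the hepatocyte program, had 130.4 and 149 CPM (-0.26, -0.33 to -0.19). None of 15 tested genes of the iron and hepcidin axis was called. Hamp, the iron hormone hepcidin, had 5382 CPM in WT and 5940.3 in DKO (-0.31), and Trf, transferrin, 7212 and 9813 (-0.01). Of 12 tested mitochondrial transcripts mt-Atp8 was lower (-1.03, -1.08 to -0.98), and the others were within 2-fold.

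The single knockout libraries, selected by the same rule with 1173 hepatocytes in YAPKO and 3010 in TAZKO, are given side by side, and each is read against the same WT library. Cyp3a11 stood at 30.6 CPM in WT, 404 in YAPKO, 152 in TAZKO and 1075 in DKO. Cib3 followed the order 32.2, 328, 37.7 and 935 CPM, near WT in TAZKO and higher in YAPKO. For these genes the DKO level was the highest of the 4 libraries. The rise of pericentral genes was not particular to DKO. The median relative log2 ratio of that list against WT was 0.89 in YAPKO, 1.88 in TAZKO and 0.75 in DKO. Oat had 2.52 CPM in WT, 99.4 in YAPKO, 73.8 in TAZKO and 80.4 in DKO, low in WT alone. Selenbp2 had 805, 513, 29.9 and 15.05 CPM in the same order, low in the 2 libraries in which Wwtr1 was deleted. The Mup family took 11.3%, 5.77%, 2.71% and 4.87% of hepatocyte UMIs, highest in WT. Cyp7a1 had 4.57, 9.92, 79.2 and 29.2 CPM, and Cyp8b1, low in DKO alone, 165, 180.4, 284 and 32.6. Saa1 had 1887, 1709, 111 and 317 CPM. Its level in YAPKO was thus near WT and that in DKO nearer to TAZKO. With 1 mouse per genotype, a difference between animals or preparations cannot be told apart from a difference between genotypes.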

How the data were processed

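Single cells were measured with 10x Genomics 3′ v3.1 libraries of primary liver cells, 1 library for each of the 4 genotypes. The deposited files hold counts of UMIs per gene and barcode, which the authors made with Cell Ranger and mm10; the version is 6.0.1 per the labels and 4.0.0 per the file headers. From these counts, UMIs were summed over hepatocytes and compared as described above, with a count of 0 taken as 3 UMIs over the library for a bound. No model was fitted. Software was Python 3.11.15, numpy 2.4.6, scipy 1.17.1, pandas 2.3.3, scanpy 1.11.5, anndata 0.12.19 and matplotlib 3.10.9. Lymphocytes were kept cells with at least 0.2% of UMIs on Cd3e, Cd3d, Cd79a, Cd79b, Ms4a1 and Nkg7 and less than 4% on the hepatocyte rule genes. Doublets were scored with Scrublet, which called 2 WT and 1 DKO cells by its automatic threshold; none was removed, and an alternative left out the 8% of kept cells with the highest scores, 47 WT and 69 DKO hepatocytes among them.

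Named genes were the deleted genes, the 8 genes of the hepatocyte rule, the 15 highest and 15 lowest relative ratios as described (without marker genes of other cell types, mitochondrial transcripts and symbols of the Gm-number and Rik kinds), and in each of 35 lists up to 4 called members in each direction and the most abundant member. Outside this rule, Abcb11, Amotl2, Ankrd1, Ccn1, Ccn2, Cps1, CT010467.1, Cux2, Cyp1a2, Fgf21, Ghr, Glul, Gulo, Hamp, Hp, Hsd3b5, Ifi44, Krt7, Krt19, Lats1, Mki67, Nr0b2, Nr1h4, Sav1, Slc10a1, Slco1a1, Socs2 and Tead1 were named after their values were seen. Members and lists were chosen with earlier results of these data known. The alternatives numbered 15, with a further 2 chosen after seeing the data. They were for scaling, cell filters, the hepatocyte rule, doublets, depth, the ranges of the pericentral score, the level for a test and the fold. The calculations were tested on simulated data.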

Additional observations from a re-analysis of the deposited data

How the results depend on the processing

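Without centring, 835 genes were higher and 131 lower, and the log2 ratio was -2.21 for Yap1 and -1.16 for Wwtr1; by construction this adds the median shift to every ratio. With an equal weight for each cell 467 genes were lower, and Wwtr1 was at -1.08. With the rule genes at 8% of UMIs or more, Yap1 was at -2.32. In cells of 5000 to 20000 UMIs 457 genes were higher and 513 lower, and Lcn2 turned to -0.0857. In the pericentral range 454 genes were lower, Yap1 was at -1.93, and Klf6 and Cxcl10 turned to -0.00634 and -0.76. Among 2 alternatives chosen after seeing the data, cells with at least 20000 UMIs gave -2.37 for Yap1 and 1.12 for S100a6, and cells with at least 1% mitochondrial UMIs 0.0335 for Hmox1. For these values the cause was not tested. With genes of at least 1 CPM 636 were higher and 549 lower, with at least 20 CPM 119 and 183, since more or fewer genes were tested, and with 4-fold in place of 2-fold 94 and 78, a stricter limit. Yap1 and Wwtr1 were lower in DKO under each alternative that gave them a value.

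Of 132 named genes past the fold, 127 had the same direction under every alternative of scaling and cells. Most were named because they were called in the main comparison, and the alternatives reuse its cells, so this agreement is partly built in. Of the 132, 81 were past the fold under each of these. The alternatives for the level for a test and the fold are not in this count. Over the alternatives of scaling and cells, 1147 of 2265 values of named genes moved beyond their counting interval and 5 turned direction. Of 490 list medians 63 moved. The median of 12 of 35 lists changed sign without centring, that of 12 in the pericentral range and 2 in the periportal. With an equal weight for each cell 7 changed sign, with the rule genes at 8% 5, and with at least 1% mitochondrial UMIs 5. In cells of 5000 to 20000 UMIs 4 did, and with at least 20000 UMIs 3. Called genes were within 2-fold in 32 of 132 cases without centring and in 20 with the rule genes at 8%. With at least 1% mitochondrial UMIs 13 were, and with an equal weight for each cell 12. In the pericentral range 21 were, among them Rgn, Acox2, Fabp1, G6pc, Sox9, Cd63, Tagln2, Anxa2, Klf6, Ddit3, Cxcl1 and Foxa2, in the periportal range Vtn, S100a6, Hmox1 and Ccnd1, and in cells of 5000 to 20000 UMIs 13, among them Slc10a2, Lcn2, Cyp2c67, G6pc, Cd63, Anxa2, Irs2 and Ddit3. In cells with at least 20000 UMIs the called genes Mir6236, Apof, Kng1, C8b, Masp2, Vtn, Cyp39a1, G6pc, Ppp1r3b, Hmox1, Bst2, Igtp, Ugt2b1 and mt-Atp8 were within 2-fold, and S100a6 turned.

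No paired analysis was possible because each genotype has 1 library. Differences between mice and between preparations cannot be told apart from genotype. Scarce genes limit the comparison: most YAP/TAZ targets were below the level for a test. The median WT hepatocyte held 2162 UMIs, and whether depth kept genes below that level was not tested. The hepatocyte rule itself uses measured values, and counts were not corrected for hepatocyte transcripts found in other cells.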

Other observations

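Of 14 genes of the circadian clock and its output, a group chosen after its values were seen, 7 were called higher and 1 lower in DKO than in WT hepatocytes, 4 were within 2-fold (Hlf, Nr1d1, Nr1d2 and Cry1), and Arntl and Npas2, with ratios of -3.32 and -4.34, had a mean below the level for a test. Of the 7 higher genes Per1, Per2, Per3, Ciart and Usp2 were below 5 CPM in WT and passed the filter through DKO, so the counts in each direction depend on the filter. The hour at which each mouse was killed is not in the labels. Dbp, a clock output factor, stood at 5.89 CPM in WT, 12.5 in YAPKO, 3.25 in TAZKO and 132 in DKO hepatocytes. Per3, a repressor of the clock, had 0.893, 2.66, 1.23 and 15.9 CPM, and Usp2, a rhythmic protease, 1.104, 4.901, 1.95 and 29.9. These 3 genes were highest in DKO. Arntl, which encodes the clock activator BMAL1, was lowest there, with 8.198, 15.1, 22.4 and 1.12 CPM. In lymphocytes Dbp was at 10.7 CPM in WT and 16.6 in DKO, and Arntl at 14.5 and 18.5. In all kept cells other than hepatocytes Dbp was at 7.19 and 49.2 CPM and Arntl at 24.9 and 11.4, the same order as in hepatocytes.

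Some genes with near-identical copies, also chosen after their values were seen, differed between libraries in more than 1 cell type. Rps3a1, a ribosomal protein gene, had 537 CPM in WT, 565 in YAPKO, 55.9 in TAZKO and 76.3 in DKO hepatocytes, and its copy Rps3a3 0.158, 0.413, 438 and 635. In lymphocytes, where albumin-driven Cre does not act, Rps3a1 stood at 4669 CPM in WT and 387 in DKO, and Rps3a3 at 2.52 and 3706. Rps15a-ps8, a ribosomal protein pseudogene, had 0.158, 0.531, 55.4 and 157 CPM in hepatocytes, and the histone gene Hist1h2al 0.2102, 0.05904, 36.5 and 40.9. WT and YAPKO thus lay on 1 side and TAZKO and DKO on the other for these 4 genes. The assignment of reads between such copies is uncertain, and what set these libraries apart was not tested. The labels do not give the strain background of the mice, so a difference in background cannot be told apart from genotype, here or in any comparison of DKO with WT.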
